A study of Mus musculus with 8 samples.

Results

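The genes described here are 10 heat shock chaperone genes of the mouse, Hspa1a, Hspa1b, Hspa8, Hsph1, Dnajb1, Bag3, Hspb1, Hsp90aa1, Hsp90ab1 and Hspd1. They were chosen by name, as cytosolic chaperones regulated by the heat shock factor HSF1 and Hspd1, with earlier results of these data known. Ensembl identifiers matched them to 10 of the 39017 genes in the deposited table. All 10 passed the filter on low counts and were among the 18952 genes tested. Of these, 9 encode proteins of the cytosol and nucleus, and the protein of Hspd1 works in the mitochondrial matrix.

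Poly(A) RNA was sequenced from mouse embryonic fibroblasts (MEFs) of E13.5 embryos, in 4 groups of 2 biological replicates. Control total and knockout total libraries hold RNA of whole, unstressed cells. Control granule and knockout granule libraries hold RNA enriched for stress granules by centrifugation from cells that had 30 min of sodium arsenite at 500 µM, a stress that halts translation and draws mRNA into cytoplasmic granules. Mettl3 encodes the methyltransferase that makes N6-methyladenosine (m6A) in mRNA. Knockout cells lost it through an inducible Cre, activated by 4-hydroxytamoxifen at 500 nM over 48 h, and its loss was examined after 7 days, the day before collection. The promoter that drives Cre, and whether control cells received the drug, are not given in the sources used here. No stressed total RNA and no unstressed granule fraction were analysed here, so fraction and stress cannot be told apart in any granule to total ratio.

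Chaperones bind unfolded protein and help it to fold, or hold it until it can be folded or degraded. Under proteotoxic stress such as heat or arsenite, HSF1 is released from chaperone control, forms trimers and binds heat shock elements, inverted repeats of the unit GAA, in the promoters of chaperone genes, whose transcription then rises quickly. Hsp70 works in a cycle with J-domain proteins, which deliver the substrate, and with exchange factors, which release it, while Hsp90 acts later on a set of client proteins. Some family members are made at all times, and others mainly under stress.

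Promoter sequences were searched for exact copies of the inverted repeat of GAA units. Whether HSF1 binds the copies found was not tested, and copies with other letters would be missed. A RefSeq promoter table of build GRCm38.p6 held 7 of the 10 genes, and Hspa8, Hsp90aa1 and Hsp90ab1 were not matched. The 250 bases before each start were searched for the pairs of units GAANNTTC and TTCNNGAA, which read the same on both strands and can overlap within longer runs, and for the runs of 3 units GAANNTTCNNGAA and TTCNNGAANNTTC on both strands. Some genes have more than 1 start, and the 7 genes had 10 windows. At least 1 pair was found in 6 of the 10 (60.0%), which belong to Hspa1a, Hspa1b, Hsph1 (both windows, the same pair), Hspb1 and Hspd1. The same pairs occurred in 4218 of 32851 windows of that length in the table (12.8%), and a run of 3 units in 153 (0.466%). Apart from Hspd1, the genes were chosen as regulated by HSF1, and the Hspa1a and Hspa1b windows are near copies. The 60.0% is therefore descriptive and does not test the group. For Dnajb1 and Bag3 these letters were not in the windows searched.

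Hspa1a and Hspa1b rose in both granule groups, whereas Hspb1, which also holds the pair GAANNTTC, was called in none of the 5 comparisons by edgeR. For that reason the windows of these genes are shown. Each is the strand of the gene, 5′ to 3′, with the bases of the paired units in capitals; Hspa1a is chr17:34972157-34972406 (minus strand), Hspa1b chr17:34959239-34959488 (minus strand) and Hspb1 chr5:135887669-135887918 (plus strand), all in GRCm38.p6.
Hspa1a: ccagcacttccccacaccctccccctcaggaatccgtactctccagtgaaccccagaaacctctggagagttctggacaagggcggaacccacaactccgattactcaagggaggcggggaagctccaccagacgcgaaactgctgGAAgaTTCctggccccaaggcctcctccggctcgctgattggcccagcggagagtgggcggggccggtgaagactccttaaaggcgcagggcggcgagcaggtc
Hspa1b: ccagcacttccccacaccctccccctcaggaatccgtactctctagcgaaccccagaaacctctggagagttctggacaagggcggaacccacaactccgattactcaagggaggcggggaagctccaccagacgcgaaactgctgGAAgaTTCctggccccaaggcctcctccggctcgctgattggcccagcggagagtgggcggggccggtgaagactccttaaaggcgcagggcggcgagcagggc
Hspb1: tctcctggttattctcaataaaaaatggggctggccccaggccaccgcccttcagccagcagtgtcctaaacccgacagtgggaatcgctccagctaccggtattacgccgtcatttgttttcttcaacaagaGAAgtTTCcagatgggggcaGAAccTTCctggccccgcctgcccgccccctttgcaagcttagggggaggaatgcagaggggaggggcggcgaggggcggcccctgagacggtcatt

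Hspa1a and Hspa1b shared 1 pair at the same place, 104 to 97 bases before the start, and their windows differed at 3 of 250 positions (C44T, T47C and T249G, with the Hspa1a base first and positions counted from the 5′ end of the window). Hspb1 had 2 pairs, 117 to 110 and 97 to 90 bases before its start. Around the Hsph1 pair (chr5:149636351-149636380, minus strand) and the Hspd1 run (chr1:55088051-55088080, minus strand) the 30-base stretches, with units in capitals, read as follows. The Hspd1 run lies in a window shared with the divergent neighbour Hspe1, and it is 1 of 2 overlapping runs of 3 units there, the only ones among the 7 genes. Both Hsph1 windows overlap an annotated exon of Hsph1, and this Hspd1 window overlaps exons of Hspd1 and Hspe1. These windows are therefore not wholly upstream of the annotated genes. The other Hspd1 window, which overlaps an exon of Hspe1 but none of Hspd1, had 0 pairs.
Hsph1: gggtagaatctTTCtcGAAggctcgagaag
Hspd1: ggccTTCcgGAAggTTCtaGAAcggaccgt

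Total counts ranged from 67257220 to 123508539 per library, and levels are CPM, counts relative to library size, scaled between libraries by the trimmed mean of M-values. Mettl3 stood at 25.4 and 24.9 CPM in control total, 6.005 and 7.35 in knockout total, 15.7 and 15.4 in control granule and 5.56 and 6.38 in knockout granule libraries, so knockout libraries were lower in both fractions (log2 fold changes -1.91 and -1.38, adjusted p = 0.0345 and 0.0208, edgeR quasi-likelihood test with Benjamini-Hochberg adjustment). Over 18 alternatives these values stayed between -2.01 and -1.77 in total RNA and between -1.49 and -1.29 in granule RNA. The call was lost in 9 of them for total RNA and in 5 for the granule fraction. In both cases the losses included the fits without either control granule or either knockout granule library. For total RNA they also included the fits without either control total library. Further alternatives lost the call in each fraction and are not listed here. All 8 fibroblast markers (Col1a1, Col1a2, Pdgfra, Pdgfrb, Thy1, Vim, Dcn and Lum) were above 3 counts in every library. Their summed level was 4108 to 5228 CPM in control total, 5494 to 5678 in control granule, 3173 to 3503 in knockout total and 6390 to 7023 in knockout granule libraries. The 4 neural markers (Tubb3, Elavl3, Stmn2 and Sox2) summed to 29.2 to 39.7, 4.34 to 4.82, 11.4 to 23.4 and 10.9 to 12.2 CPM in the same order, nearly all from Tubb3 outside the knockout granule libraries. Stmn2 was at or under 0.126 CPM and Sox2 at or under 0.0180 CPM everywhere, and Sox2 had 0 counts in 5 of the 8 libraries. Macrophage markers (5 genes) summed to 63.8 to 79.8, 36.1 to 48.3, 45.8 to 60.4 and 57.3 to 60.1 CPM, and endothelial markers (4 genes) to 13.25 to 14.8, 6.24 to 8.21, 14.9 to 20.1 and 10.8 to 14.4 CPM. The 3 erythroid markers summed to at most 26.1 CPM and the 4 epithelial ones to between 60.2 and 175 CPM, and all 16 genes of these 4 lists were above 3 counts in every library. The part of these markers in the chaperone results was not tested.

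Replicates were not equally close. The knockout total libraries differed most, with a median absolute log2 ratio of 0.813 over 10261 genes averaging 5 CPM or more, against 0.312 for the control total, 0.134 for the knockout granule and 0.101 for the control granule pair. In the total libraries the signed log2 ratio of replicate 1 to replicate 2 went with the GC content of the transcript. Spearman's rho across genes, which are not independent replicates, was 0.764 in control and -0.734 in knockout. Mitochondrially encoded transcripts took 6.16% to 8.81% of counts in knockout granule libraries and 7.60% in knockout total replicate 1, against 0.590% to 0.881% elsewhere. The chaperone transcripts ranged from 43.7% GC (Hsp90aa1) to 61.7% GC (Hspb1). Each library's trend of level with GC was removed in an alternative fit, and calls that this changed are named below.

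The 10 genes together took a larger share of the granule libraries. They held 0.507% and 0.487% of all counts in control total, 0.640% and 0.501% in knockout total, 1.07% and 1.08% in control granule and 0.915% and 1.04% in knockout granule libraries, with Wilson 95% intervals of at most 0.002 percentage points to either side. These intervals hold counting error alone, since the reads carry no molecular identifiers. Every granule library was above every total library. Hsp90aa1, the stress-inducible cytosolic Hsp90, made up 5.59% to 8.95% of the chaperone counts in the 4 total libraries and 26.6% to 38.6% in the 4 granule libraries. In RNA from many cells, fewer cells of a type and less RNA per cell cannot be told apart.

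**Figure D1:**
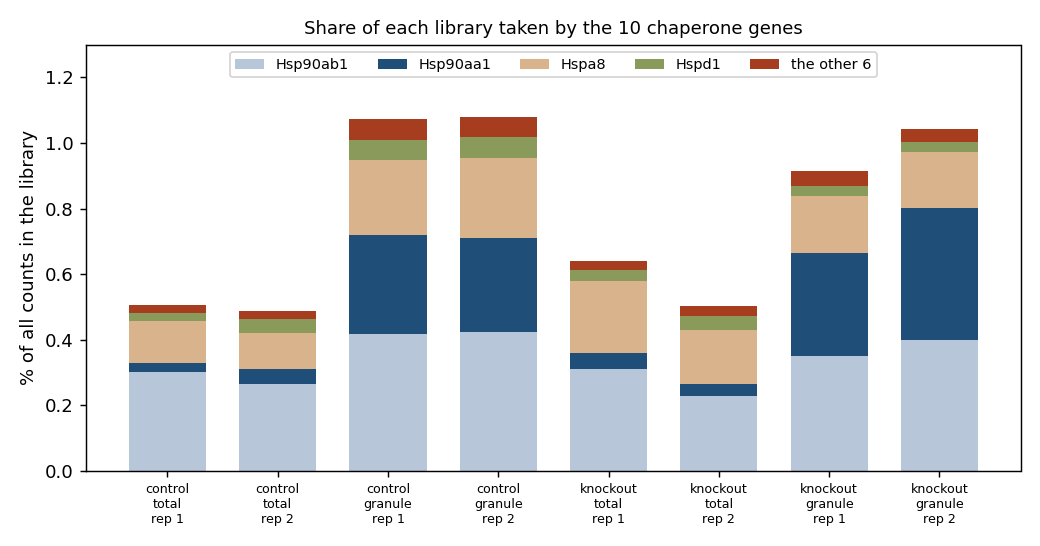
Stacked bars give the percentage of all counts in each of the 8 libraries that fell on the 10 chaperone genes, split into Hsp90ab1, Hsp90aa1, Hspa8, Hspd1 and the other 6 summed. Totals run from 0.487% to 0.640% in total RNA and from 0.915% to 1.08% in the granule fraction, and the Hsp90aa1 band is the one that widens most.

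Levels were compared between genes as CPM per kb of the longest protein-coding transcript. In control total RNA the constitutive genes led. Hsp90ab1 stood at 1077 ± 150.4 (SD, n = 2) and Hspa8 at 478 ± 62.9 CPM per kb, followed by Hspd1 at 131 ± 38.6 and Hsp90aa1 at 104 ± 26.2, whose libraries overlapped. Dnajb1 (25.8 ± 2.60), Hsph1 (23.5 ± 0.388) and Bag3 (19.5 ± 3.82) formed a middle tier, and Hspa1b (4.83 ± 0.420), Hspb1 (4.28 ± 0.00423) and Hspa1a (0.316 ± 0.0154) were lowest. Apart from Hspd1 and Hsp90aa1, no neighbours in this order overlapped between libraries.

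The order changed in the granule fraction. In control granule libraries Hsp90aa1 stood at 936 ± 34.4 CPM per kb (SD, n = 2), just under Hspa8 at 1027 ± 54.4, and Hspa1b at 40.2 ± 3.05 overlapped with Bag3 at 38.2 ± 0.142. Knockout granule libraries had Hsp90aa1 second, at 1068 ± 212, above Hspa8 at 708 ± 4.67 and under Hsp90ab1 at 1456 ± 161. Hspb1 and Hspa1a were the lowest of the 10 in both granule groups. In knockout total RNA neighbours overlapped more often: Hsp90ab1 (1113 ± 349) with Hspa8 (840 ± 260.2), Hspd1 (164 ± 10.4) with Hsp90aa1 (134.5 ± 47.5), and Dnajb1 (27.0 ± 13.3) with both Hsph1 (35.35 ± 11.95) and Bag3 (20.9 ± 2.70).

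**Figure D2:**
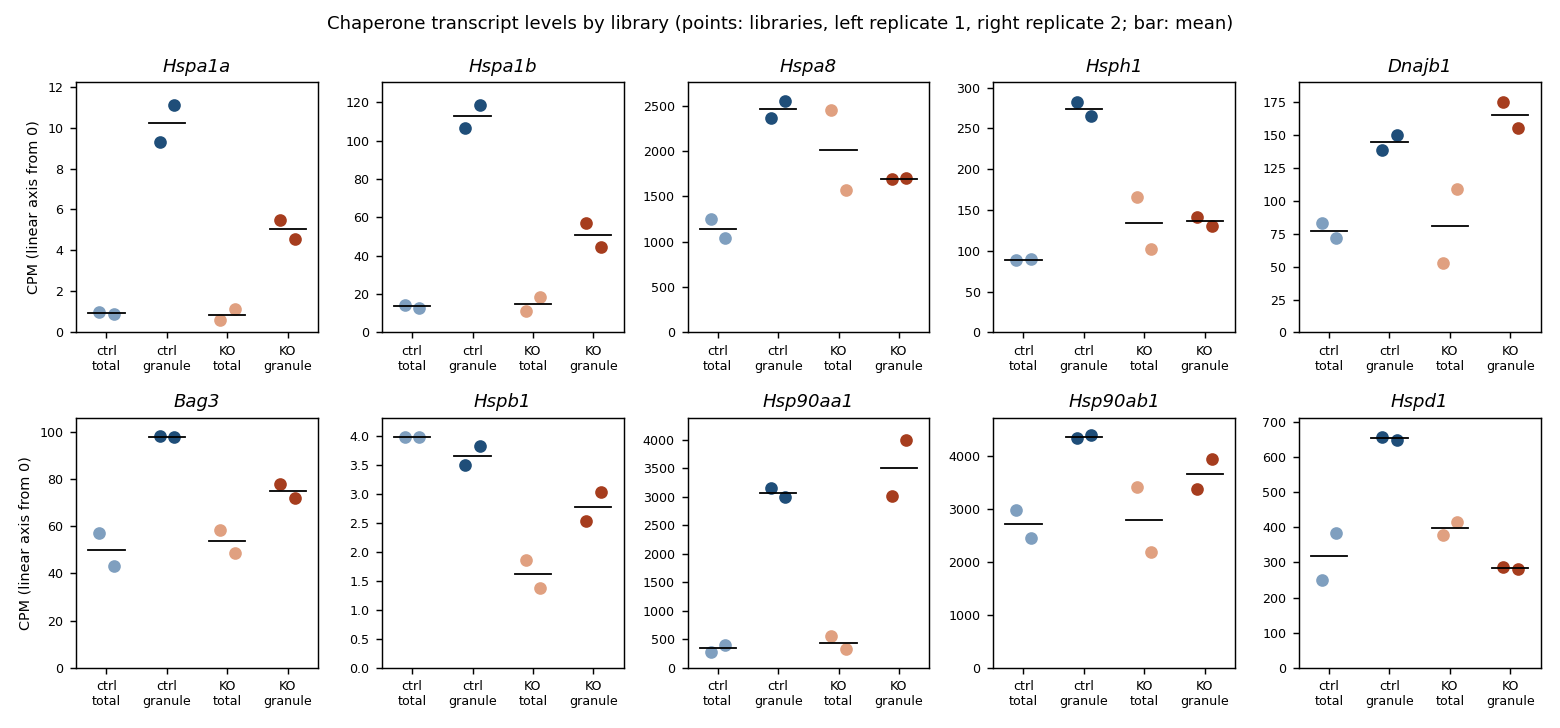
Each panel shows 1 chaperone gene, with CPM on a linear axis from 0 and the 4 groups side by side; points are libraries (replicate 1 left, replicate 2 right) and bars are means. Hsp90aa1, Hspa1a and Hspa1b rise from low total levels in both genotypes. Hspa8, Hsph1, Hsp90ab1 and Hspd1 have control granule points above the control total ones, with knockout granule points that overlap the knockout total ones or, for Hspd1, lie below them; the genotype difference of the ratios passed for none of the 4.

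Hspa1a and Hspa1b encode the strongly stress-inducible cytosolic Hsp70. Hspa1a (ENSMUSG00000091971, chr17:34969190-34972156, minus strand) stood at 0.971 and 0.906 CPM in control total and 0.584 and 1.14 in knockout total libraries. Its granule levels were 9.31 and 11.1 CPM in control and 5.50 and 4.57 in knockout cells. All granule libraries were above all total libraries, the 2 genotypes overlapped in total RNA, and both knockout granule libraries were below both control ones.

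Hspa1b (ENSMUSG00000090877, chr17:34956436-34959238, minus strand) followed the same order. It stood at 14.4 and 12.7 CPM in control total, 11.2 and 18.2 in knockout total, 107 and 119 in control granule and 57.1 and 44.6 in knockout granule libraries. The groups separated as for Hspa1a.

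Both copies rose in the granule fraction of both genotypes. In control cells Hspa1a was 10.9-fold higher (log2 fold change 3.44, SE 0.40, 95% interval 2.52 to 4.36, adjusted p = 0.00606, edgeR) and Hspa1b 8.32-fold higher (3.06, SE 0.33, adjusted p = 0.00491). In knockout cells the ratios were 5.84-fold for Hspa1a (log2 fold change 2.54, SE 0.38, adjusted p = 0.00640, edgeR) and 3.46-fold for Hspa1b (1.79, SE 0.32, adjusted p = 0.0106). In the granule fraction the knockout was 0.493 of control for Hspa1a (log2 fold change -1.02, 95% interval -1.85 to -0.19, adjusted p = 0.115, edgeR) and 0.451 for Hspa1b (-1.15, -1.86 to -0.43, adjusted p = 0.0568), so neither difference passed. Both passed with the GC trend removed (-1.21 and -1.31, adjusted p = 0.00971 and 0.0039) and in a fit of the granule libraries alone (-1.01 and -1.14, adjusted p = 7.13e-05 and 3.2e-06). The genotype difference of the 2 ratios was -0.90 and -1.27 on the log2 scale (adjusted p = 0.298 and 0.136), not past the threshold, and -1.68 and -2.02 with the GC trend removed (adjusted p = 0.0309 and 0.0136).

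The copies are hard to tell apart by short reads. Their annotated coding sequences were 99.4% identical (1918 of 1929 aligned columns), with identical runs of up to 638 bases, and their 5′ UTRs 98.7%, whereas the 3′ UTRs shared 45.7%. How reads that fit both copies were counted is not given in the sources used here, so the split between them is uncertain. Hspa8, Hspd1 and both Hsp90 genes have processed pseudogenes, for which the same holds. The share of the summed counts assigned to Hspa1a was 6.32% and 6.65% in control total, 8.02% and 8.54% in control granule, 4.97% and 5.89% in knockout total and 8.79% and 9.28% in knockout granule libraries. With the copies summed, the control granule to total log2 ratio was 3.09 (adjusted p = 0.00479) and the knockout ratio 1.84 (adjusted p = 0.00979, edgeR). Gm20481, which overlaps 19.0% of the Hspa1a exon, had 0 counts in every library.

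Hspa8 (ENSMUSG00000015656, chr9:40800984-40810087, plus strand) encodes Hsc70, the constitutive cytosolic Hsp70. It stood at 1251 and 1038 CPM in control total, 2368 and 2552 in control granule, 2451 and 1570 in knockout total and 1687 and 1703 in knockout granule libraries. Control granule libraries were above control total libraries without overlap, and the knockout granule libraries lay between the knockout total replicates. The control granule to total ratio was 2.15-fold (log2 fold change 1.10, SE 0.30, 95% interval 0.42 to 1.79, adjusted p = 0.0527, edgeR) and the knockout ratio 0.843 (-0.25, SE 0.29, adjusted p = 0.594). With the GC trend removed the control ratio passed (1.32, adjusted p = 0.013). In total RNA both knockout libraries were above both control libraries, by a fitted log2 difference of 0.81 that did not pass (adjusted p = 0.165, edgeR). Snord14c, Snord14d and Snord14e overlap 6.09% of its exons.

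Hsph1 (ENSMUSG00000029657, chr5:149614287-149636376, minus strand) encodes Hsp105, an Hsp110 family protein that acts as an exchange factor for Hsp70. Its levels were 88.2 and 90.3 CPM in control total, 282 and 265 in control granule, 166.5 and 102 in knockout total and 141 and 131 in knockout granule libraries. It rose 3.07-fold in the control granule fraction (log2 fold change 1.62, SE 0.29, 95% interval 0.95 to 2.29, adjusted p = 0.0185, edgeR). The knockout granule libraries lay within the span of the knockout total libraries (0.02, 95% interval -0.64 to 0.67, adjusted p = 0.976). Both were below the control granule libraries (0.497 of control, log2 fold change -1.01, adjusted p = 0.0643, edgeR), a difference that passed with the GC trend removed (-0.92, adjusted p = 0.0107) and in a fit of the granule libraries alone (-1, adjusted p = 2.88e-06).

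Dnajb1 (ENSMUSG00000005483, chr8:83608193-83612653, plus strand) encodes Hsp40, a J-domain protein that delivers substrates to Hsp70. It stood at 82.9 and 71.9 CPM in control total, 139 and 150.5 in control granule, 52.6 and 109 in knockout total and 175 and 155 in knockout granule libraries. Granule libraries were above total libraries in both genotypes, and the knockout granule libraries were above the control ones. The granule to total ratios were alike in size, 1.87-fold in control and 2.04-fold in knockout cells, and neither passed (log2 fold changes 0.90 and 1.03, SE 0.35 and 0.35, adjusted p = 0.132 and 0.0799, edgeR). Both passed with the GC trend removed (1.21 and 1.07, adjusted p = 0.0134 and 0.0144). Their difference was 0.13 on the log2 scale, with a 95% interval from -1.01 to 1.27, and -0.14 with the GC trend removed.

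Bag3 (ENSMUSG00000030847, chr7:128523616-128546981, plus strand) encodes an adaptor that links Hsp70 to small heat shock proteins and to selective autophagy. Its levels were 56.9 and 43.1 CPM in control total, 98.1 and 97.6 in control granule, 58.5 and 48.7 in knockout total and 78.0 and 71.8 in knockout granule libraries. Granule libraries were higher in both genotypes without overlap, by 1.96-fold in control (log2 fold change 0.97, SE 0.26, adjusted p = 0.0525, edgeR) and 1.40-fold in knockout cells (0.48, SE 0.26, adjusted p = 0.228). The control ratio passed with the GC trend removed (1.36, adjusted p = 0.0148).

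Hspb1 (ENSMUSG00000004951, chr5:135887919-135889563, plus strand) encodes Hsp25, a small heat shock protein that holds unfolded proteins without using ATP. It stood at 3.99 and 3.98 CPM in control total, 3.504 and 3.83 in control granule, 1.86 and 1.37 in knockout total and 2.53 and 3.03 in knockout granule libraries. On this scale it was the only one of the 10 genes whose control granule libraries were not above the control total ones (log2 fold change -0.12, 95% interval -0.80 to 0.57, adjusted p = 0.820, edgeR), but the sign turned with the GC trend removed (0.35, adjusted p = 0.653). The transcript has the highest GC content of the 10, and it was lower in every knockout library than in every control library of the same fraction. In total RNA the knockout was at 0.406 of control (log2 fold change -1.30, SE 0.30, adjusted p = 0.113, edgeR). With the GC trend of each library removed that value was -0.31 (adjusted p = 0.721, edgeR), and without knockout total replicate 1 or 2 it was -1.54 or -0.99 (adjusted p = 0.0126 and 0.0148).

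Hsp90aa1 (ENSMUSG00000021270, chr12:110690605-110702728, minus strand) encodes the stress-inducible Hsp90 and gained the most CPM per kb of the 10 from total to granule RNA in both genotypes. It stood at 280.3 and 402 CPM in control total, 3152 and 2993 in control granule, 551.5 and 331 in knockout total and 3010 and 3996 in knockout granule libraries. Every granule library was above every total library, and the genotypes overlapped in both fractions. The ratio was 9-fold in control cells (log2 fold change 3.17, SE 0.37, 95% interval 2.32 to 4.02, adjusted p = 0.00630, edgeR) and 7.94-fold in knockout cells (2.99, SE 0.37, 2.14 to 3.84, adjusted p = 0.00377). The genotype difference of the ratios was -0.18 on the log2 scale with a 95% interval from -1.29 to 0.93 (adjusted p = 0.831, edgeR). Its sign turned with the scaling, to 0.05 with library size alone and to 0.54 with the GC trend removed.

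Hsp90ab1 (ENSMUSG00000023944, chr17:45567775-45573271, minus strand) encodes the constitutive Hsp90 and was the most abundant of the 10 per kb in every library. It stood at 2983 and 2447 CPM in control total, 4348 and 4396 in control granule, 3428 and 2183 in knockout total and 3383 and 3958 in knockout granule libraries. Control granule libraries were above control total ones, and the knockout fractions overlapped. The ratios were 1.61-fold in control (log2 fold change 0.69, SE 0.31, adjusted p = 0.174, edgeR) and 1.31-fold in knockout cells (0.39, SE 0.30, adjusted p = 0.410), and neither passed.

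Hspd1 (ENSMUSG00000025980, chr1:55077835-55088243, minus strand) encodes Hsp60, the chaperonin of the mitochondrial matrix. It stood at 251 and 383 CPM in control total, 658 and 649 in control granule, 379 and 415 in knockout total and 286 and 282 in knockout granule libraries. Control granule libraries were above the control total ones, whereas knockout granule libraries were below the knockout total ones. The ratio was 2.06-fold in control (log2 fold change 1.04, SE 0.27, adjusted p = 0.0502, edgeR) and 0.716 in knockout cells (-0.48, SE 0.27, adjusted p = 0.250). The control ratio passed with the GC trend removed (0.89, adjusted p = 0.0371). In the granule fraction Hspd1 was lower in the knockout, at 0.435 of control (log2 fold change -1.20, SE 0.28, 95% interval -1.83 to -0.57, adjusted p = 0.0353, edgeR). Its partner Hspe1, the co-chaperonin Hsp10, is transcribed from the same divergent promoter and overlaps 4.24% of the Hspd1 exons.

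Hspe1 stood at 103 and 145.5 CPM in control total, 109 and 123 in control granule, 211 and 155 in knockout total and 83.1 and 85.8 in knockout granule libraries. The control fractions overlapped (log2 fold change -0.10, adjusted p = 0.843, edgeR), and the knockout granule libraries were lower than the knockout total ones (-1.11, SE 0.28, adjusted p = 0.0336). Between genotypes in the granule fraction it differed by -0.46 (adjusted p = 0.324, edgeR), against -1.20 for Hspd1; the difference between the 2 genes was not tested.

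Because the 10 genes were chosen with earlier results of these data known, counts and medians over them are descriptive and do not test the group. Counts from alternative fits are given without the share of all genes called in the same fit. They describe the fits and are not shown to be particular to the 10 genes. Counted together, 4 of the 10 genes rose in control granule against control total libraries (Hspa1a, Hspa1b, Hsp90aa1 and Hsph1), where 5.89% of all tested genes rose. Of the other 6, 5 were higher without overlap between libraries (9 of 10 with the called genes), a separation seen for 35.2% of all tested genes. The median log2 fold change was 1.07 over the 10 genes and -0.06 over all genes tested. Leaving out any 1 of the 4 control libraries kept the log2 fold changes between 3.35 and 3.61 for Hspa1a, 3.01 and 3.18 for Hspa1b, 2.94 and 3.5 for Hsp90aa1 and 1.61 and 1.70 for Hsph1, but none then passed (adjusted p of 0.0685 to 0.164, edgeR). Without knockout granule replicate 1 or 2, Hsph1 also missed the threshold (adjusted p = 0.0639 and 0.0614), and without knockout total replicate 1 or 2 the count was 9.

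Of the same 10, 3 rose in knockout granule against knockout total libraries (Hspa1a, Hspa1b and Hsp90aa1), where 9.17% of all tested genes rose, and the median was 0.63 over the 10 and 0.04 over all genes. Without knockout granule replicate 1, Hspa1a and Hspa1b missed the threshold (adjusted p = 0.0615 and 0.105, edgeR), as they did without replicate 2 (0.0546 and 0.0723). Without knockout total replicate 1 the count was 7, and without replicate 2 it was 5, of which 1 was lower. A fit of the knockout libraries alone called 0 of the 10, with log2 fold changes of 2.48, 1.72 and 2.91 for Hspa1a, Hspa1b and Hsp90aa1.

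**Figure D3:**
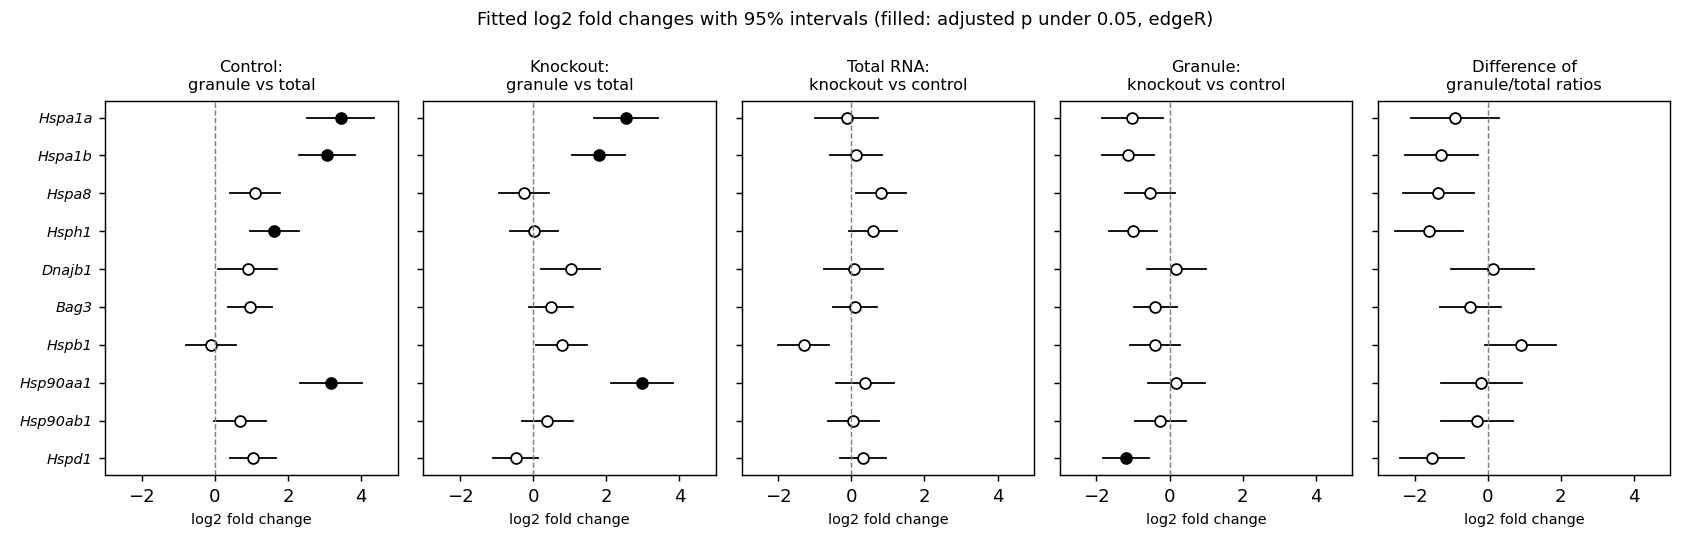
Points are fitted log2 fold changes of the 10 genes in each of the 5 comparisons, with 95% intervals, and filled points have an adjusted p under 0.05. There are 4 filled points in the control granule to total panel, 3 in the knockout one, 0 in total RNA between genotypes, 1 in the granule fraction between genotypes (Hspd1) and 0 for the difference of ratios.

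In unstressed total RNA, no chaperone gene passed between knockout and control (0 of 10), where 0.412% of all tested genes passed. An unadjusted p under 0.05 (edgeR) was seen for 2 of the 10, Hspb1 and Hspa8, and for 4705 of the 18952 genes tested. The Wald test of DESeq2 called 1 (Hspb1, lower). Hspa1a, Hspa1b, Dnajb1, Bag3, Hsp90aa1, Hsp90ab1 and Hspd1 overlapped between genotypes, with fitted log2 differences from -0.12 to 0.37. Without knockout total replicate 1 the count was 1, and without replicate 2 it was 4 (3 higher and 1 lower). These 2 libraries differed from each other more than any other pair; Dnajb1, for example, stood at 52.6 and 109 CPM in them.

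In the granule fraction, 1 of 10 passed between genotypes (Hspd1, lower), where 3.66% of all tested genes were lower. In all, 8 of the 10 genes were lower in both knockout libraries than in both control libraries, a separation seen for 36.6% of all tested genes; Dnajb1 was higher and Hsp90aa1 overlapped. The median was -0.47 over the 10 and 0.08 over all genes. The Hspd1 call was lost without control granule replicate 1 or 2 (adjusted p = 0.229 and 0.205, edgeR), without knockout granule replicate 1 or 2 (0.224 and 0.271) and without control total replicate 1 (0.0502), at log2 fold changes of -1.27 to -1.20, and it was lost with library size alone as the scaling (-1.11, adjusted p = 0.0634). With the GC trend removed the count was 4. Both knockout granule libraries also had the high mitochondrial share of 6.16% and 8.81%, and the part of that in these differences was not tested.

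The difference between the knockout and control granule to total ratios had an unadjusted p under 0.05 for 4 of 10 genes (edgeR). That was so for 4898 of the 18952 genes tested. This difference was called for 0 of the 10 genes, where 0.517% of all tested genes were called. The largest were Hsph1 (-1.60, SE 0.40, 95% interval -2.53 to -0.67, adjusted p = 0.0960, edgeR), Hspd1 (-1.52, SE 0.39, -2.41 to -0.64, adjusted p = 0.0960), Hspa8 (-1.35, SE 0.42, adjusted p = 0.115) and Hspa1b (-1.27, SE 0.44, adjusted p = 0.136), in log2 units. Hsp90aa1 and Dnajb1, at -0.18 and 0.13, lay nearest to 0. Because this comparison uses all 8 libraries, it shares them with each of the comparisons above. The median was -0.69 over the 10 genes and 0.09 over all genes tested, and DESeq2 called 3.

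Which differences of ratios passed changed when 1 knockout total library was left out. With all 8 libraries kept, it also changed with the filter, the test and the handling of GC content. Without knockout total replicate 1, those that passed were Hspd1 -1.60, Hspa1b -1.59, Hspa1a -1.32, Hsph1 -1.22 and Hspa8 -1.01. Without knockout total replicate 2, they were Hsph1 -2.08, Hspa8 -1.81, Hspd1 -1.63, Hspa1b -1.04, Bag3 -0.78 and Hsp90ab1 -0.76. With the GC trend of each library removed, 4 passed (Hspa1b -2.02, Hspa1a -1.68, Hspa8 -1.52 and Hsph1 -1.23). In each of these 3 fits the called differences were negative. Where 1 knockout total library was left, it was assumed to vary like the other groups.

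**Figure D4:**
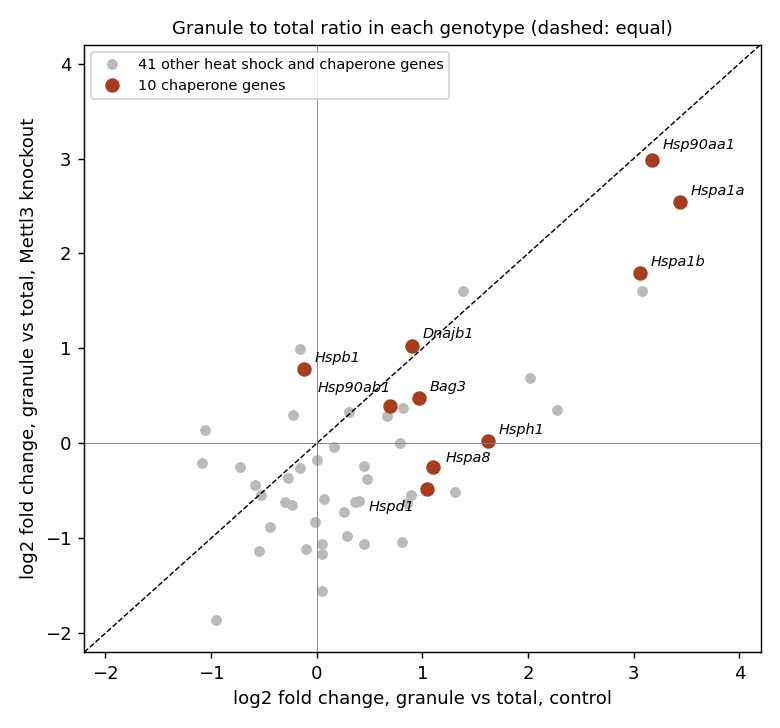
Each point is a gene, with its granule to total log2 fold change in control cells on the horizontal axis and in knockout cells on the vertical axis; dark points are the 10 chaperone genes, grey points the 41 other tested genes of the heat shock network, and the dashed line marks equal ratios. Hsp90aa1 (3.17 and 2.99) and Dnajb1 (0.90 and 1.03) lie near the line, while Hsph1 (1.62 and 0.02) and Hspd1 (1.04 and -0.48) lie below it.

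The wider network was taken from a list of 42 genes of the same system, of which 41 were tested and Hspa14 had no matched row. The regulators Hsf1 and Hsf2 encode heat shock factors. Hsf1 stood at 175 and 141 CPM in control total, 133 and 137 in control granule, 139 and 168.5 in knockout total and 105 and 91.3 in knockout granule libraries, and passed no test (log2 fold changes from -0.65 to -0.04 over the 5 comparisons). Hsf2 stood at 14.8 and 24.6, 36.4 and 32.9, 58.5 and 19.9, and 19.7 and 18.5 CPM in that order and passed none (from -1.85 to 0.99). The spread of Hsf2 between the knockout total libraries exceeded that between the other groups.

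In control cells 3 of the 41 rose in the granule fraction and 0 fell, where 5.89% of all tested genes rose and 4.17% fell, with a median of 0.07. Hspa4l, an Hsp110 family relative of Hsph1, stood at 16.8 and 25.9 CPM in control total and 190 and 171 in control granule libraries (log2 fold change 3.08, SE 0.41, adjusted p = 0.00898, edgeR). Dnajb4, a J-domain relative of Dnajb1, stood at 7.77 and 12.6 in control total and 52.7 and 45.8 CPM in control granule libraries (2.27, SE 0.41, adjusted p = 0.0192). The third was Dnaja1, another J-domain gene, named after its values were seen (2.02, adjusted p = 0.0167).

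None of the 3 small heat shock protein genes of the list passed. Hspb6, Hspb8 and Cryab had control granule to total log2 fold changes of -0.95, -1.06 and -1.09 (adjusted p = 0.283, 0.12 and 0.0536, edgeR).

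In knockout cells 2 of the 41 rose in the granule fraction and 5 fell, where 9.17% of all tested genes rose and 8.47% fell, with a median of -0.51. Hspa4l rose from 38.3 and 19.0 CPM in total RNA to 79.3 and 95.9 in the granule fraction (log2 fold change 1.61, adjusted p = 0.0287, edgeR). The 2 lowest were Hspa9, the mitochondrial Hsp70 (2163 and 1639 in total against 654 and 648 CPM in granule libraries, -1.55, adjusted p = 0.0126), and Cct6a, a subunit of the cytosolic chaperonin TRiC (240 and 357 against 140 and 125 CPM, -1.17, adjusted p = 0.0266). Hspe1 was also among these 5.

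Between genotypes, 0 of 41 passed in total RNA. An unadjusted p under 0.05 (edgeR) was seen for 7 of them and for 4705 of the 18952 genes tested. In the granule fraction 0 rose and 6 fell, where 5.79% of all tested genes rose and 3.66% fell, with a median of -0.51, and 5 of the 6 were subunits of TRiC, which folds actin and tubulin. All 8 TRiC subunits had log2 differences between -1.67 and -0.79 in the granule fraction. In total RNA theirs ran from -0.81 to 0.39, and none passed. Whether the TRiC calls held under the alternative fits is not given here. Cct6a stood at 423 and 420.0 CPM in control granule and 140 and 125 in knockout granule libraries (-1.67, SE 0.28, adjusted p = 0.0148, edgeR), and Cct8 at 840.1 and 797 against 324 and 298 CPM (-1.40, SE 0.28, adjusted p = 0.0238). The genotype difference of ratios passed for 0 of the 41, with a median of -0.70. Its unadjusted p was under 0.05 (edgeR) for 16 of the 41 and for 4898 of the 18952 genes tested.

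**Figure D5:**
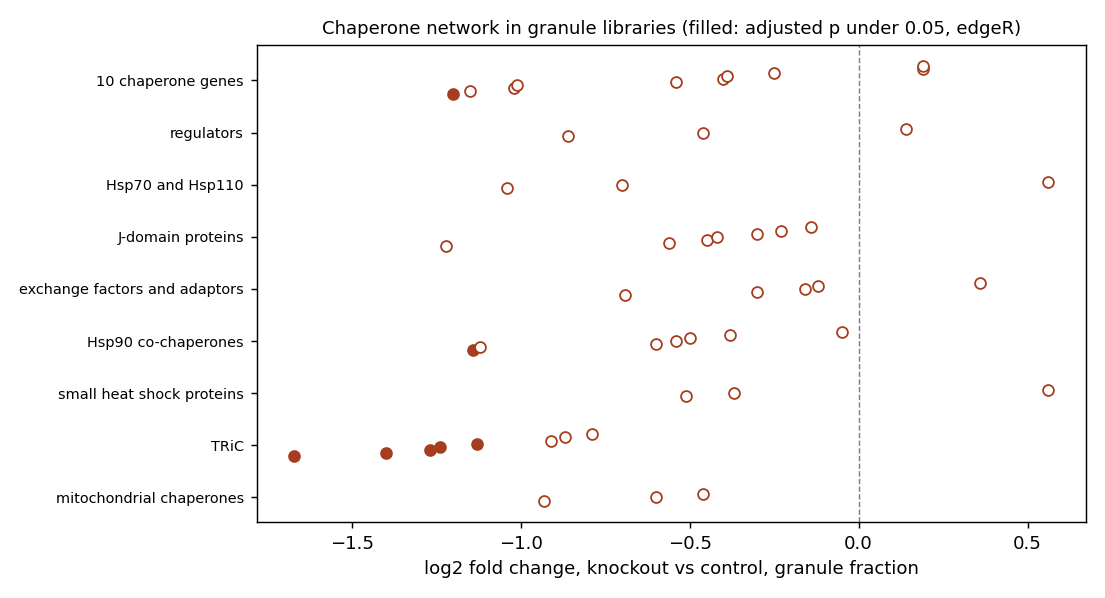
Each point is a gene of the chaperone network, placed by role on the vertical axis and by its log2 fold change between knockout and control granule libraries on the horizontal axis, and filled points have an adjusted p under 0.05. The 8 TRiC subunits lie from -1.67 to -0.79 with 5 filled, and the 10 chaperone genes from -1.20 to 0.19 with Hspd1 filled.

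Other genes followed 2 of the chaperones closely over the 8 libraries. Likeness was the mean absolute difference of centred log2 CPM among 10209 genes that averaged 5 CPM or more. The nearest to Hspa1b were Dusp5 (0.216), Dusp1 (0.271) and Evi2a (0.302). Dusp5, for example, stood at 31.4 and 29.1 CPM in control total, 288 and 272 in control granule, 19.7 and 46.0 in knockout total and 162 and 154 in knockout granule libraries. The nearest to Hspa8 were Fosl1 (0.0937), Rab12 (0.104) and Tgfbr3 (0.104). Fosl1 stood at 174 and 147, 385 and 369, 363 and 270.3, and 279 and 259 CPM in the same order of groups.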

How the data were processed

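The authors deposited raw counts per Ensembl gene, 1 column per library, not pooled. STAR, DESeq2 and the builds GRCm38 and mm10 are named in the submitters' processing notes; the counting program, its annotation, strand setting and treatment of multi-mapped reads are not given in the sources used here. Identifiers were matched to GENCODE M21 (37693 of 39017). The members and gene lists were chosen with earlier results of these data known. Genes kept by the expression filter of edgeR 4.0.16 (R 4.3.3) were fitted with its robust quasi-likelihood model, trimmed-mean-of-M-values scaling and 1 mean for each of the 4 groups over all 8 libraries (4 residual degrees of freedom). The code was checked on simulated counts with the same spread in all groups and no GC trend. That check cannot show whether a shared spread suits these libraries. Adjustment of p over 18952 genes followed Benjamini and Hochberg, and "rose", "fell" and "passed" mean an adjusted p under 0.05. Standard errors and 95% intervals come from the F statistic. Total counts of 67257220 to 123508539 make 3 counts 0.0243 to 0.0446 CPM. The network genes named are Hsf1, Hsf2, Hspe1 and, per comparison, the 2 highest and 2 lowest called, of which 1 is not reported here; the nearest patterns are the 3 closest to Hspa1b and to Hspa8. Alternatives were other scalings (DESeq2 1.42.0 size factors, library size alone), no filter, a replicate block, removal of each library's GC trend (lowess, span 0.3), the DESeq2 Wald test, only the groups compared, Hspa1a and Hspa1b summed, and leaving out each library. A crossed block was added after seeing the data.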

Additional observations from a re-analysis of the deposited data

How the results depend on the processing

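Counts of the 10 genes called are given in the order control granule to total (4), knockout granule to total (3), knockout against control in total RNA (0) and in granule RNA (1), and difference of ratios (0). They were 7, 4, 1, 3 and 3 with no filter, 8, 4, 0, 4 and 4 with the GC trend removed, 8, 4, 0, 4 and 1 with that and the replicate block, 7, 3, 1, 3 and 3 with DESeq2, and 9, 0, 0 and 6 with only the groups compared, which cannot give the difference of ratios. Library size alone gave 4, 3, 0, 0 and 0, and so did the replicate block, under which the Hspd1 difference in granule RNA missed the threshold (adjusted p = 0.0712, edgeR). Leaving out 1 library gave 0 to 9, 1 to 7, 0 to 4, 0 to 5 and 0 to 6. DESeq2 size factors, the summed Hsp70 copies and the crossed block left the counts at 4, 3, 0, 1 and 0. Deviations of same-numbered libraries correlated between -0.602 and 0.19 over the 6 pairs of groups, so the numbers are not shown to pair the samples, and with 2 numbers the block removes 1 degree of freedom. Library size alone moved the median of all genes by -0.13, 0.07, -0.10, 0.09 and 0.19 in the order above. The share of all genes called in each alternative fit is not given here, so a higher count need not be particular to the 10 genes.

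Signs turned for values near 0 and for some further from 0. In the main fit the knockout ratio of Hspb1 was 0.78 and the Hspb1 difference of ratios 0.90. Neither passed (adjusted p = 0.109 and 0.218, edgeR). With the GC trend removed, the control ratio became 0.35 for Hspb1 (0.34 with the block), 0.18 for Hsf1 and 0.14 for Hspe1 (the same with the block), the knockout ratio of Hspb1 -0.05, the total RNA difference 0.47 for Hspa1a (0.47 with the block), -0.21 for Hsp90aa1 (-0.20) and 0.61 for Hsf1 (0.59), and the difference of ratios -0.14 for Dnajb1 (-0.11), -0.40 for Hspb1 (-0.33) and 0.54 for Hsp90aa1 (0.53). The knockout ratio of Hsph1 was -0.01 with DESeq2 size factors, -0.10 with no filter, -0.02 with DESeq2 and -0.07 with only the groups compared. In total RNA, Hspa1a was 0.10 as a summed copy, Bag3 -0.01 and Hsp90ab1 -0.08 with library size alone, and Hsf1 0.03 with no filter and 0.00 with DESeq2. The difference of ratios was -0.02 for Dnajb1 with no filter and 0.05 for Hsp90aa1 with library size alone. Leaving out 1 library spanned 0 for the control ratio of Hspe1 (-0.32 to 0.21), the knockout ratios of Hspa8 (-0.66 to 0.10), Hsph1 (-0.42 to 0.40) and Hsp90ab1 (-0.03 to 0.74), the total RNA differences of Hspa1a (-0.57 to 0.29), Hspa1b (-0.17 to 0.43), Dnajb1 (-0.45 to 0.50), Bag3 (-0.04 to 0.33), Hsp90aa1 (-0.04 to 0.80), Hsp90ab1 (-0.31 to 0.44) and Hsf1 (-0.13 to 0.13), the granule difference of Hsp90aa1 (-0.04 to 0.33), and the differences of ratios of Dnajb1 (-0.32 to 0.57), Hsp90aa1 (-0.67 to 0.22) and Hsp90ab1 (-0.76 to 0.05). The cause was not tested.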
